A study of Homo sapiens with 12 samples.

Results

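The genes described here are 48 genes of mitosis and of the spindle, the microtubule machine that separates chromosomes. They were chosen by symbol from a list of mitotic regulators, with earlier results of these data known. The rule itself used no measured value, and all 48 were found among the 58735 genes of the deposited expression table. Messenger RNA was sequenced in 12 libraries from cells labelled as the established human liver tumour lines Huh7 and HepG2. Each line was kept for 48 h without geniposide (controls) or with it, and each of the 4 groups held 3 libraries. Geniposide is an iridoid glucoside found in gardenia fruit, and the labels used here give no dose and no vehicle. The title of the series names DUOX1 and ferroptosis, an iron-dependent form of cell death, as its subject. Nothing in the labels says that libraries of a group came from separate cultures, so p-values measure only the spread between these libraries, which may be technical.

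Cells enter mitosis when cyclin B with the kinase CDK1 is switched on by CDC25 phosphatases, and the kinases PLK1, AURKA and AURKB then drive spindle assembly and chromosome alignment. The spindle checkpoint (BUB1, BUB1B, BUB3, MAD2L1, TTK) holds back the anaphase-promoting complex, a ubiquitin ligase activated by CDC20, until every kinetochore, the chromosome's attachment site, is bound to microtubules. Most of these genes are transcribed late in the cell cycle, and transcription factors such as FOXM1, B-MYB and the DREAM complex act on them, in part through a short promoter element called CHR and through CCAAT boxes bound by NF-Y. In bulk libraries, fewer cells in mitosis and less RNA per cell cannot be told apart.

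Promoters are shown first because most members share these letters. RefSeq promoter windows (assembly GRCh38.p14, 250 bases before to 50 bases after a gene's start) were matched for 41 of the 48 members. Those without an entry were FOXM1, AURKA, BIRC5, BUB3, TTK, UBE2C and TPX2. The CHR letters TTTGAA were searched on both strands and lay in the window of 31 of the 41 members (75.6%), against 13% of 10027 matched genes among those tested and 15.2% of all 35116 windows in the table. The letters CCAAT, also on both strands, lay in 32 of 41 (78%), against 43.1% and 34.6%. Both motifs lay in 24 members (58.5%), against 7.17% and 5.9%; the letters of the motifs can overlap by at most 1 base. Some genes have several windows: of the 53 member windows, 34 (64.2%) held CHR letters. Of 46 CHR matches in member windows, 32 (69.6%) lay within 50 bases of the start, on either side. A site in overlapping windows of 1 gene was counted in each, and the same share was not counted for other genes. The 4 stretches below are the 120 bases before RefSeq's start, 5′ to 3′ on the plus strand, with matches in capitals (CCAAT reads ATTGG on the other strand). They are the kinase PLK1 (chr16:23678769-23678888), the anaphase activator CDC20 (chr1:43358861-43358980) and cyclin B2, CCNB2 (chr15:59105026-59105145), each with both motifs, and the kinesin KIF20A (chr5:138178992-138179111), which has CCAAT matches alone.
PLK1: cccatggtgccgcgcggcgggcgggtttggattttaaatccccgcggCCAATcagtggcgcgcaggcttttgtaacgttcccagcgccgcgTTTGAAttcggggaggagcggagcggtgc
CDC20: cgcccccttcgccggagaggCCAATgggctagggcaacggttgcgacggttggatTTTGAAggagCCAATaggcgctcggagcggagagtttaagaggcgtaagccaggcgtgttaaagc
CCNB2: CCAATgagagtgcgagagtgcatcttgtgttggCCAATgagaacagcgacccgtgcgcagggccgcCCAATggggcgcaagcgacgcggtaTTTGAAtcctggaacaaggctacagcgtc
KIF20A: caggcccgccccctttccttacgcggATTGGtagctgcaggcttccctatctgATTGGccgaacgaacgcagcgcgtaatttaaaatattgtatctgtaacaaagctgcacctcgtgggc
A match describes the letters and shows no binding. CHR letters were no rarer among members that were not called than among those that fell. In Huh7-labelled libraries 15 of 24 matched members that fell held them and 13 of 14 that were not called, and in HepG2-labelled libraries 13 of 18 and 17 of 21. KIF20A, shown above without CHR letters, fell in both lines, and CCNB2, with them, was called lower in HepG2-labelled libraries and not in Huh7-labelled ones.

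On hg38, the deposited table places CCNB1 at chr5:69167010-69178245, CDK1 at chr10:60778331-60794852, PLK1 at chr16:23677656-23690367, AURKA at chr20:56369389-56392337, FOXM1 at chr12:2857681-2877155 and CDC25B at chr20:3786772-3806121. Depth was 15056655 to 17211659 fragments per library. FPKM values themselves imply a divisor that was 1.09 to 1.10 times that depth in untreated and 1.15 to 1.17 times in treated Huh7-labelled libraries. In HepG2-labelled ones it was 0.895 to 0.912 times untreated and 0.909 to 0.914 times treated. Levels set across the lines depend on it, and so does the size of the treatment change in Huh7-labelled libraries. Of 10 hepatocyte markers, among them albumin (ALB) and alpha-fetoprotein (AFP), 0 reached 1 FPKM (fragments per kilobase, relative to a library total used by the authors) in any group. Their sum was 0.198 to 0.563 FPKM per library. These markers do not bear out the labelled cell type, so the lines are called Huh7-labelled and HepG2-labelled. Endothelial markers also stayed below 1 FPKM (0 of 5). The sum of 5 bile duct markers was 275 to 288 FPKM in untreated and 72.4 to 75.9 FPKM in treated HepG2-labelled libraries. Of the 5, KRT7 and KRT19 alone reached a mean of 1 FPKM in the untreated ones, and KRT7 alone in the treated ones. In Huh7-labelled libraries the sum was 2.46 to 4.36 FPKM, and SOX9 alone reached 1 FPKM. Of 5 fibroblast markers, 4 reached 1 FPKM in HepG2-labelled cells (sums 36.5 to 38.1 untreated, 44.5 to 46.6 treated) and 2 in Huh7-labelled ones (4.65 to 7.39). The part of these markers in the results below was not tested. The third treated Huh7-labelled library stood apart: its counts differed from those of the first and second with a chi-square per degree of freedom of 43.4 and 44.9, against 2.2 to 6.58 for the other pairs within groups. Results that rest on it are given with and without it.

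In Huh7-labelled cells, geniposide was accompanied by lower RNA of most mitotic genes. Of the 47 members above the filter (at least 1 FPKM in 3 libraries; PRC1 was below it), 28 fell (59.6%, against 18.1% of all 15518 tested genes) and 2 rose (4.26%, against 16.4%), while 17 were not called. A call is an adjusted p below 0.05 in limma, fitted to log2(FPKM + 1) over all 15518 genes; this scale understates the change of low genes. The median change of the 47 was -0.28 on that scale, with all tested genes at 0.00, and single members ran from -1.14 (CCNB1) to 0.36 (NDC80). Groups did not overlap for 27 lower and 2 higher members (22.6% and 21.3% of all tested genes). After scaling to TPM the split of all calls moved from 2545 higher and 2812 lower to 3260 and 2031, and that of the members to 2 and 22. The 6 falls lost were those of CCNA2, UBE2C, PTTG1, CENPE, CENPF and SPC25 (adjusted p 0.0541 to 0.156). Without the third treated library 37 members fell (23.5% of all tested genes did), 27 of them in both fits, and 0 rose, with NDC80 at adjusted p = 0.093 and NUF2 at 0.0662.

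In HepG2-labelled cells mitotic genes were also lower, with fewer members called. Here 22 of the 47 members fell (46.8%, against 21.5% of all tested genes) and 1, CDC25B, rose (2.13%, against 21%), with 24 not called. The median was -0.19, with all tested genes at 0.00. All treated libraries lay below all untreated ones for 32 members and above for 3 (29.4% of all tested genes each). Since all 4 groups share 1 estimate of the spread, Huh7-labelled treated library 3 bears on these calls too: without it 30 members fell, the 22 among them, and TOP2A joined CDC25B (27.3% of all tested genes fell in that fit). After TPM scaling 14 members fell and 3 rose, and the calls of all tested genes split into 3737 higher and 2701 lower in place of 3258 and 3344. The 8 falls lost were those of CCNB2, AURKB, TTK, CENPE, NDC80, KIF20A, ANLN and MKI67 (adjusted p 0.0548 to 0.154). Of the members, 16 fell in both lines. That is 57.1% of the 28, where 46.8% of all 47 fell in HepG2-labelled cells. It is 72.7% of the 22, where 59.6% of all 47 fell in Huh7-labelled cells. The share of all tested genes that fell in both lines was not counted. These 16 members were CCNA2, PLK1, AURKA, AURKB, BIRC5, BUB1B, CDC20, CENPE, SPC25, KIF20A, KIF23, TPX2, DLGAP5, ANLN, NCAPH and MKI67.

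**Figure D1:**
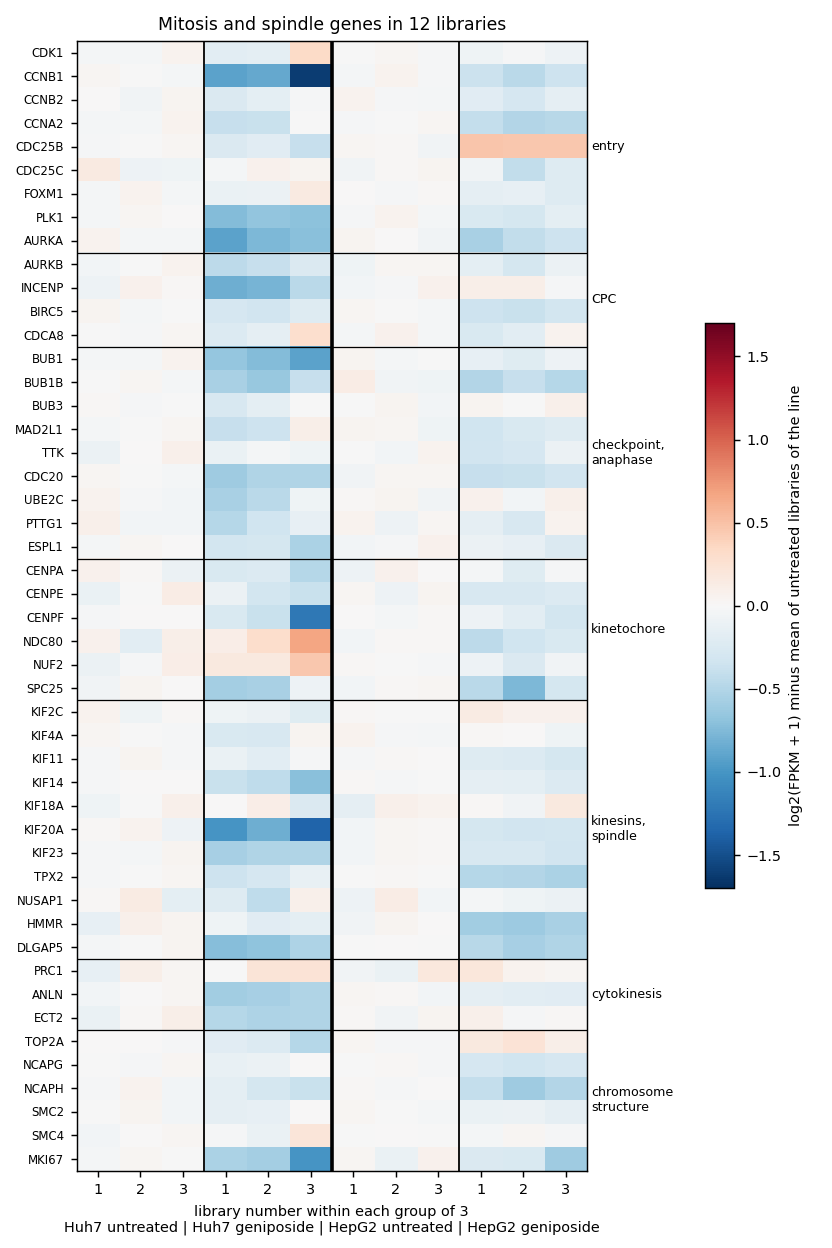
Each row is 1 of the 48 members, grouped by role, and each column 1 of the 12 libraries; colour is log2(FPKM + 1) minus the mean of the untreated libraries of that line (blue lower, red higher). Most rows are blue in the treated columns of both lines, with medians over 47 members of -0.27, -0.32 and -0.22 in the treated Huh7-labelled libraries and -0.17, -0.25 and -0.21 in the HepG2-labelled ones.

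Among the 9 genes of mitotic entry, 5 fell in Huh7-labelled libraries (55.6%, against 18.1% of all tested genes). In HepG2-labelled ones 4 fell (44.4%, against 21.5%) and 1 rose (11.1%, against 21%). Cyclin B1, CCNB1, the partner of CDK1 at entry, gave 73.6, 72.1 and 70.8 FPKM in untreated and 37.8, 38.9 and 22.9 FPKM in treated Huh7-labelled libraries. It fell from 72.1 ± 1.41 FPKM to 33.2 ± 8.95 FPKM (SD, n = 3), a log2 change of -1.14 ± 0.15 (SE; limma adjusted p = 0.000335). The groups were far apart, and the third treated library was the lowest; without it the change was -0.89. In HepG2-labelled libraries CCNB1 gave 90.6, 96.4 and 91.2 FPKM untreated and 71.7, 67.0 and 72.1 FPKM treated. The groups did not overlap, but the log2 change of -0.40 ± 0.15 missed the threshold (adjusted p = 0.062; 1.26e-05 without Huh7-labelled treated library 3). CDK1 itself, the kinase subunit, gave 28.3, 28.0 and 30.3 FPKM untreated and 25.3, 25.7 and 36.3 FPKM treated in Huh7-labelled libraries. Its first and second treated libraries lay below every untreated one and the third above them all. The change was -0.01 ± 0.11 (adjusted p = 0.978), 0.069 after TPM scaling and -0.17 without the third treated library (adjusted p = 0.00451). In HepG2-labelled libraries CDK1 gave 35.1, 35.9 and 34.6 FPKM untreated and 33.4, 34.6 and 33.2 FPKM treated, a log2 change of -0.06 ± 0.11 (adjusted p = 0.717) that turned to 0.0083 after TPM scaling.

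PLK1, the kinase that promotes entry, centrosome maturation and cytokinesis, gave 37.7, 39.3 and 38.5 FPKM untreated and 22.7, 23.9 and 23.3 FPKM treated in Huh7-labelled libraries. In HepG2-labelled ones it gave 48.2, 50.9 and 48.0 FPKM untreated and 40.7, 39.5 and 43.5 FPKM treated. Libraries of a group were close to each other and groups did not overlap in either line. PLK1 fell by 0.70 ± 0.05 log2 in the first line (adjusted p = 5.72e-06) and by 0.25 ± 0.05 log2 in the second (adjusted p = 0.00201; -0.13 and 0.0556 after quantile normalization). AURKA, the spindle pole kinase, gave 28.1, 26.4 and 26.4 FPKM untreated and 13.9, 15.4 and 16.04 FPKM treated in Huh7-labelled libraries. HepG2-labelled values were 53.8, 52.3 and 49.6 FPKM untreated and 35.0, 38.4 and 40.4 FPKM treated. Every treated library was below every untreated one, with treated means at 0.56 and 0.731 of the untreated means, and AURKA fell by 0.80 ± 0.07 log2 (adjusted p = 1.78e-05) and 0.44 ± 0.07 (adjusted p = 0.000365).

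FOXM1, the transcription factor of many late cell cycle genes, gave 24.4, 26.0 and 24.5 FPKM untreated and 23.0, 23.2 and 27.8 FPKM treated in Huh7-labelled libraries. The groups overlapped only through the third treated library, which was the highest of the 6, and the log2 change of -0.02 ± 0.07 was not called (adjusted p = 0.87; 0.058 after TPM scaling; -0.10 and adjusted p = 0.0418 without that library). In HepG2-labelled libraries FOXM1 gave 49.8, 48.9 and 50.2 FPKM untreated and 44.6, 44.99 and 42.6 FPKM treated. These did not overlap, yet the log2 change of -0.17 ± 0.07 missed the threshold (adjusted p = 0.0669; 0.0017 without Huh7-labelled treated library 3).

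CDC25B, a phosphatase that activates CDK1, went opposite ways in the lines. It gave 25.3, 25.5 and 26.3 FPKM untreated and 21.5, 22.4 and 19.4 FPKM treated in Huh7-labelled libraries, and fell there by 0.28 ± 0.05 log2 (adjusted p = 0.00253; -0.19 and 0.0564 after quantile normalization). In HepG2-labelled libraries it gave 56.7, 56.5 and 53.5 FPKM untreated and 77.5, 77.0 and 76.8 FPKM treated, a rise of 0.47 ± 0.05 log2 (adjusted p = 5.93e-05; 1.39 times the untreated mean). Neither line's groups overlapped. Its relative CDC25C stayed between 3.96 and 6.85 FPKM in all 12 libraries and was not called in either line. Cyclin A2, CCNA2, fell from 40.9 FPKM to 29.5 FPKM in HepG2-labelled cells (adjusted p = 0.00198). In Huh7-labelled ones its call was marginal: 44.3, 44.4 and 47.02 FPKM untreated stood against 34.2, 34.5 and 45.2 FPKM treated (adjusted p = 0.0478). Leaving out any 1 library ended that call in 11 of 12 fits (up to adjusted p = 0.153, without the second treated one), while without the third treated one it was 4.01e-05. Cyclin B2, CCNB2, was called lower in HepG2-labelled libraries (means of 37.0 and 31.8 FPKM, adjusted p = 0.0226), and not without the first untreated (adjusted p = 0.0846) or the second treated HepG2-labelled library (0.0899). In Huh7-labelled libraries its log2 change of -0.14 was not called (adjusted p = 0.113), and was -0.21 without the third treated one (adjusted p = 0.00887).

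**Figure D2:**
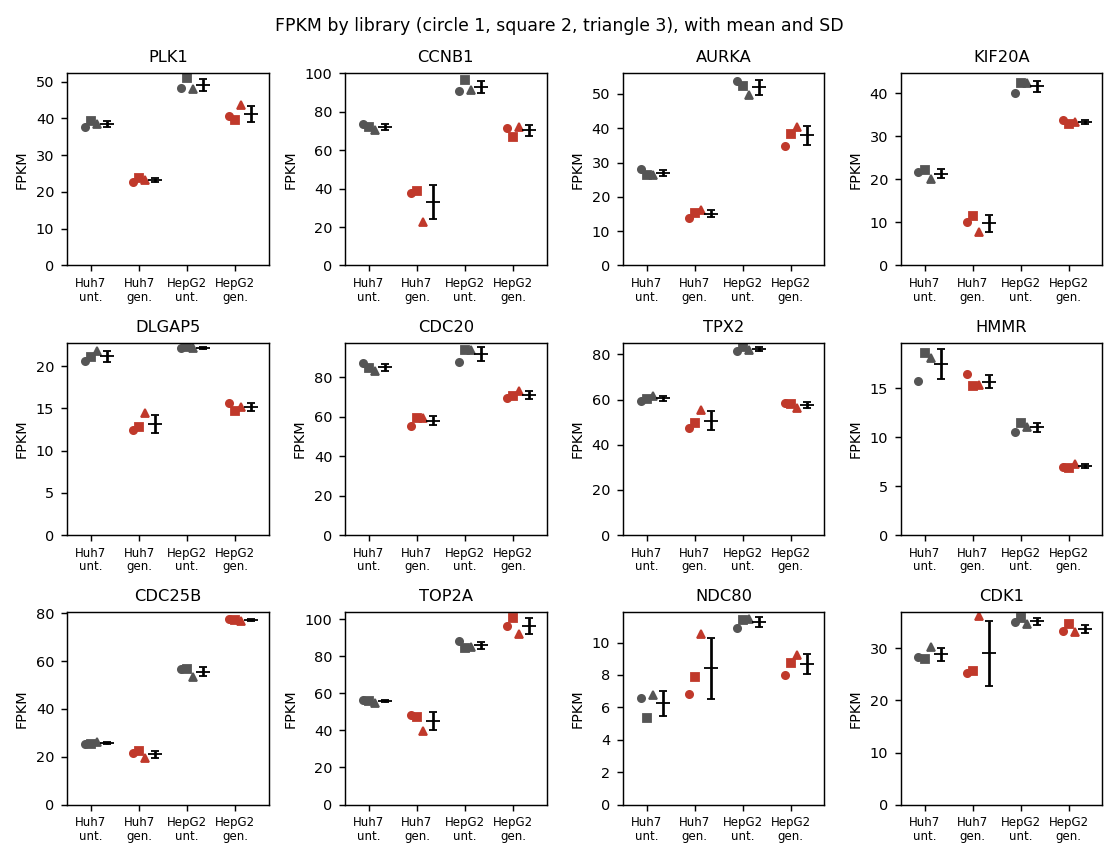
FPKM of 12 members in each of the 12 libraries on axes that start at 0, with untreated libraries in grey, treated ones in red, and the mean and SD of 3 libraries in black. PLK1 and AURKA separate by treatment in both lines, CDC25B goes from 25.7 FPKM to 21.1 FPKM in Huh7-labelled and from 55.6 FPKM to 77.1 FPKM in HepG2-labelled libraries, and for CDK1 the third treated Huh7-labelled library (triangle) is at 36.3 FPKM.

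The chromosomal passenger complex corrects wrong attachments of chromosomes. In Huh7-labelled libraries 3 of its 4 members were called lower (75%, against 18.1% of all tested genes), and 2 of 4 in HepG2-labelled ones (50%, against 21.5%). AURKB, its kinase, gave 48.3, 49.5 and 52.1 FPKM untreated and 36.3, 37.9 and 41.9 FPKM treated in Huh7-labelled libraries, where it fell by 0.36 ± 0.07 log2 (adjusted p = 0.00235). In HepG2-labelled libraries AURKB gave 37.8, 40.7 and 40.6 FPKM untreated and 35.1, 31.9 and 36.9 FPKM treated. Groups did not overlap, but the fall of 0.19 ± 0.07 was marginal (adjusted p = 0.0428; -0.08 and 0.293 after quantile normalization), and 8 of 12 fits without 1 library lost it, up to adjusted p = 0.165 without the second treated HepG2-labelled one. BIRC5, survivin, which carries the complex to the centromere, gave 52.4, 49.2 and 50.2 FPKM untreated and 41.1, 39.98 and 43.3 FPKM treated in Huh7-labelled libraries. In HepG2-labelled ones BIRC5 gave 41.4, 40.05 and 39.4 FPKM untreated and 31.3, 30.8 and 32.3 FPKM treated. It fell in both lines with no overlap (adjusted p = 0.00106 and 0.000162). INCENP, the scaffold, fell in Huh7-labelled libraries to 0.608 of its untreated mean (means of 27.7 and 16.9 FPKM, adjusted p = 0.000249). It was at 27.9 and 29.2 FPKM in HepG2-labelled ones (adjusted p = 0.648). CDCA8, borealin, was not called in either line.

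Of the 9 genes of the spindle checkpoint and anaphase, 6 fell in Huh7-labelled libraries (66.7%, against 18.1% of all tested genes). In HepG2-labelled ones 3 fell (33.3%, against 21.5%). BUB1, a checkpoint kinase at kinetochores, gave 23.2, 23.3 and 24.8 FPKM untreated and 14.7, 13.9 and 12.2 FPKM treated in Huh7-labelled libraries. It fell by 0.77 ± 0.07 log2 there (adjusted p = 2.22e-05), with groups far apart. In HepG2-labelled libraries BUB1 gave 21.5, 20.2 and 20.7 FPKM untreated and 18.9, 17.9 and 19.6 FPKM treated, a log2 change of -0.14 ± 0.07 that was not called (adjusted p = 0.116; 0.0195 without Huh7-labelled treated library 3). BUB1B, BubR1 of the checkpoint complex, fell in both lines, from 16.5 FPKM to 11.2 FPKM (adjusted p = 0.000347) and from 19.7 FPKM to 14.1 FPKM (adjusted p = 0.000498). The checkpoint proteins BUB3 and MAD2L1 were not called in either line. Without Huh7-labelled treated library 3 both were called lower in Huh7-labelled libraries (limma adjusted p = 0.00266 and 0.000221), and MAD2L1 also in HepG2-labelled ones (0.000514). In Huh7-labelled libraries their first and second treated values were below, and the third at or above, the untreated ones: MAD2L1 gave 23.8, 24.3 and 25.0 FPKM untreated and 18.4, 18.9 and 26.1 FPKM treated. TTK, the kinase MPS1, was called lower in HepG2-labelled cells (means of 11.7 and 9.74 FPKM, adjusted p = 0.0171; up to 0.0706, without the first treated one). CDC20, which activates the anaphase-promoting complex, gave 87.1, 84.9 and 83.1 FPKM untreated and 55.4, 59.3 and 59.5 FPKM treated in Huh7-labelled libraries. In HepG2-labelled ones CDC20 gave 87.7, 94.1 and 94.0 FPKM untreated and 69.5, 70.4 and 73.3 FPKM treated. It was among the most abundant members and fell in both lines without overlap, by 0.54 ± 0.05 log2 (adjusted p = 2.61e-05) and 0.37 ± 0.05 (adjusted p = 0.000148). ESPL1, separase, which cuts cohesin, fell in Huh7-labelled cells (means of 15.0 and 11.3 FPKM, adjusted p = 0.0019). Its inhibitor PTTG1, securin, and the ubiquitin-conjugating enzyme UBE2C were also called there (adjusted p = 0.0277 and 0.0217), but those calls were lost in 5 and 4 of 12 fits without 1 library, up to adjusted p = 0.0972 (without the first untreated library) and 0.073 (without the first treated one).

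Centromere and kinetochore genes split. In Huh7-labelled libraries 4 of 6 fell (66.7%, against 18.1% of all tested genes) and 2 rose (33.3%, against 16.4%). In HepG2-labelled ones 3 of 6 fell (50%, against 21.5%) and 3 were not called. NDC80 and NUF2, partners in the complex that grips microtubules, were the 2 members called higher. NDC80 gave 6.61, 5.36 and 6.76 FPKM untreated and 6.82, 7.89 and 10.5 FPKM treated in Huh7-labelled libraries, and 10.9, 11.4 and 11.4 FPKM untreated and 8.02, 8.73 and 9.25 FPKM treated in HepG2-labelled ones. NUF2 gave 10.97, 11.7 and 12.9 FPKM untreated and 13.4, 13.5 and 16.6 FPKM treated in Huh7-labelled libraries. Treated values were above untreated ones for both genes, by a narrow gap apart from the third library. NDC80 was called higher at adjusted p = 0.0463 (a log2 change of 0.36 ± 0.13) and in HepG2-labelled libraries lower at adjusted p = 0.0483 (-0.34 ± 0.13). These calls were lost in 11 and 9 of 12 fits without 1 library, up to adjusted p = 0.167 (without the second untreated Huh7-labelled library) and 0.146 (without the first treated HepG2-labelled one). NUF2 was called higher at adjusted p = 0.036 (0.27 ± 0.09), and not in 6 of 12 such fits, up to 0.129 without the first untreated Huh7-labelled library. In HepG2-labelled libraries NUF2 gave 14.9, 14.6 and 14.5 FPKM untreated and 13.7, 12.3 and 14.1 FPKM treated (adjusted p = 0.266). SPC25, another subunit of that complex, went the other way in the first line: it was called lower at 14.2 to 10.6 FPKM (adjusted p = 0.0424; lost in 9 of 12 fits, up to 0.133 without the first treated library) and fell from 7.96 FPKM to 5.34 FPKM in HepG2-labelled cells (adjusted p = 0.0123; 0.0504 without the second treated one). CENPA, the histone that marks centromeres, fell in Huh7-labelled cells (means of 12.1 and 9.48 FPKM, adjusted p = 0.0108; 0.0578 in a fit of that line alone). CENPF, a large kinetochore protein, gave 29.4, 29.96 and 29.8 FPKM untreated and 24.7, 22.6 and 12.3 FPKM treated there (adjusted p = 0.0288). Its log2 change of -0.62 was -0.32 with that last library left out (adjusted p = 0.00166), and leaving out an untreated library ended the call (up to adjusted p = 0.0725, without the second). CENPE, a kinetochore motor, was called lower in both lines (adjusted p = 0.0319 and 0.0286), with the calls lost in 4 and 5 of 12 fits (up to 0.124 without the third untreated Huh7-labelled library, and 0.0871 without the third untreated HepG2-labelled one).

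Among 11 kinesins and spindle assembly genes, 5 fell in Huh7-labelled libraries (45.5%, against 18.1% of all tested genes) and 6 in HepG2-labelled ones (54.5%, against 21.5%). In either line 0 rose (against 16.4% and 21%). KIF20A, the kinesin that carries passenger proteins to the midzone, gave 21.7, 22.2 and 20.1 FPKM untreated and 10.1, 11.5 and 7.71 FPKM treated in Huh7-labelled libraries. It fell to 0.458 of its untreated mean (-1.07 ± 0.11, adjusted p = 4.72e-05; -0.92 without the third treated library), the lowest ratio of the 47. In HepG2-labelled libraries KIF20A gave 40.1, 42.4 and 42.3 FPKM untreated and 33.8, 32.9 and 33.2 FPKM treated, which did not overlap (adjusted p = 0.0341; lost in 6 of 12 fits without 1 library, up to 0.09 without the second untreated HepG2-labelled one). KIF23, a motor of the central spindle, gave 13.7, 13.6 and 14.4 FPKM untreated and 9.02, 9.40 and 9.47 FPKM treated in Huh7-labelled libraries. It fell by 0.53 ± 0.04 log2 there (adjusted p = 1.85e-05) and by 0.29 ± 0.04 log2 in HepG2-labelled ones (means of 18.8 and 15.2 FPKM, adjusted p = 0.000434). DLGAP5 (HURP), which stabilises microtubules near chromosomes, gave 20.6, 21.0 and 21.8 FPKM untreated and 12.4, 12.8 and 14.4 FPKM treated in Huh7-labelled libraries. In HepG2-labelled ones DLGAP5 gave 22.1, 22.3 and 22.1 FPKM untreated and 15.6, 14.7 and 15.2 FPKM treated. Its untreated FPKM was nearly the same in both lines, a comparison that depends on the divisor described above. DLGAP5 fell by 0.64 ± 0.06 log2 in Huh7-labelled libraries (limma adjusted p = 2.21e-05) and by 0.52 ± 0.06 in HepG2-labelled ones (limma adjusted p = 3.9e-05). KIF14, a motor of late mitosis, fell in Huh7-labelled libraries (means of 8.52 and 5.75 FPKM, adjusted p = 0.000607).

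TPX2, which activates AURKA on the spindle, gave 81.7, 83.3 and 82.0 FPKM untreated and 58.4, 58.1 and 56.2 FPKM treated in HepG2-labelled libraries. It gave 59.6, 60.3 and 61.7 FPKM untreated and 47.3, 49.5 and 55.3 FPKM treated in Huh7-labelled ones. TPX2 fell in both, by 0.51 ± 0.05 log2 (adjusted p = 3.96e-05) and 0.25 ± 0.05 (adjusted p = 0.00488), with no overlap. HMMR, a spindle pole protein that binds hyaluronan, gave 10.6, 11.4 and 11.05 FPKM untreated and 7.001, 6.82 and 7.24 FPKM treated in HepG2-labelled libraries, a fall of 0.58 ± 0.06 log2 (adjusted p = 4.95e-05). In Huh7-labelled libraries HMMR gave 15.7, 18.6 and 18.1 FPKM untreated and 16.5, 15.2 and 15.4 FPKM treated; these overlapped (adjusted p = 0.109). KIF11, the motor that pushes spindle poles apart, fell in HepG2-labelled cells (means of 29.3 and 24.5 FPKM, adjusted p = 0.0017). The kinesins KIF2C, KIF4A and KIF18A and the microtubule bundler NUSAP1 were not called in either line.

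The cytokinesis genes ANLN and ECT2 both fell in Huh7-labelled libraries (18.1% of all tested genes did), and 1 of them in HepG2-labelled ones (21.5% did). ANLN, anillin, the scaffold of the contractile ring, gave 21.1, 22.0 and 22.5 FPKM untreated and 14.2, 14.4 and 15.0 FPKM treated in Huh7-labelled libraries. In HepG2-labelled ones ANLN gave 85.0, 84.1 and 80.3 FPKM untreated and 74.7, 73.1 and 72.3 FPKM treated. It fell by 0.56 ± 0.04 log2 (adjusted p = 1.22e-05) and by 0.18 ± 0.04 log2 (adjusted p = 0.00745; -0.11 and adjusted p = 0.0836 after TPM scaling, -0.037 and 0.545 after quantile normalization). ECT2, which activates RhoA at the division site, gave 17.8, 19.6 and 20.9 FPKM untreated and 13.6, 13.2 and 13.3 FPKM treated in Huh7-labelled cells (-0.51 ± 0.06, adjusted p = 0.000128). In HepG2-labelled libraries ECT2 gave 31.7, 30.1 and 32.3 FPKM untreated and 33.4, 31.0 and 31.8 FPKM treated. The latter overlapped (adjusted p = 0.717). PRC1, which bundles midzone microtubules, was at 0.366 to 0.854 FPKM in the 12 libraries and was not tested above the filter. The annotated gene AC068831.7 lies on the same strand and shares 57.6% of PRC1's exon bases, and it was at 1.66 to 2.78 FPKM, so the level of PRC1 is uncertain.

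Of 6 genes of chromosome structure, 3 fell in each line (50%, against 18.1% of all tested genes in Huh7-labelled and 21.5% in HepG2-labelled libraries). TOP2A, topoisomerase II alpha, which untangles DNA, gave 56.1, 55.8 and 55.0 FPKM untreated and 48.5, 47.2 and 39.5 FPKM treated in Huh7-labelled libraries, a fall of 0.30 ± 0.07 log2 (adjusted p = 0.00706). That call was lost after quantile normalization (-0.19, adjusted p = 0.172) and when Huh7-labelled libraries were fitted alone (adjusted p = 0.0571). In HepG2-labelled libraries TOP2A gave 88.0, 84.6 and 84.8 FPKM untreated and 96.5, 100.6 and 92.1 FPKM treated. All treated values there were higher, and the log2 change of 0.16 ± 0.07 missed the threshold (adjusted p = 0.0837; 0.00235 without Huh7-labelled treated library 3). MKI67, which coats mitotic chromosomes and is a common proliferation marker, gave 31.7, 33.1 and 32.3 FPKM untreated and 22.0, 21.4 and 15.6 FPKM treated in Huh7-labelled libraries. It fell by 0.71 ± 0.13 log2 there (adjusted p = 0.00177; -0.55 without the third treated library, which was the lowest). In HepG2-labelled libraries MKI67 gave 50.2, 45.4 and 51.8 FPKM untreated and 41.4, 40.7 and 32.0 FPKM treated. These did not overlap (adjusted p = 0.0387), though 6 of 12 fits without 1 library lost the call, up to adjusted p = 0.145 without the third treated HepG2-labelled one. NCAPH, a condensin subunit, gave 26.1, 25.5 and 25.9 FPKM untreated and 19.3, 16.6 and 18.0 FPKM treated in HepG2-labelled libraries, and fell there by 0.50 ± 0.07 log2 (adjusted p = 0.000152). In Huh7-labelled ones NCAPH gave 24.1, 25.7 and 23.7 FPKM untreated and 21.7, 19.6 and 18.6 FPKM treated (adjusted p = 0.00786; 0.1 after quantile normalization). NCAPG, its partner, was called lower in HepG2-labelled libraries (means of 19.3 and 15.5 FPKM, adjusted p = 0.000472). The condensin ATPases SMC2 and SMC4 were not called in either line. Without Huh7-labelled treated library 3, SMC2 was called lower in Huh7-labelled (limma adjusted p = 0.00906) and HepG2-labelled libraries (0.00963), and SMC4 in neither.

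Whether geniposide's effect differed between the lines was tested as a difference of effects (HepG2-labelled minus Huh7-labelled, in log2). It was called for 18 of the 47 members: 13 above 0 (14.1% of all tested genes) and 5 below (13.7%). CDC25B had the smallest p, with a difference of 0.74 ± 0.08 (95% interval 0.58 to 0.91, adjusted p = 9.71e-05). PLK1 fell more in Huh7-labelled cells (0.46, interval 0.31 to 0.61, adjusted p = 0.000937), as did BUB1 (0.63, interval 0.42 to 0.83, adjusted p = 0.00094), ANLN (0.38, interval 0.24 to 0.52, adjusted p = 0.00157) and ECT2 (0.54, interval 0.35 to 0.72, adjusted p = 0.00115). INCENP, KIF20A and TOP2A had differences of 0.76, 0.75 and 0.47, with falls in Huh7-labelled cells. HMMR (-0.44, interval -0.64 to -0.23, adjusted p = 0.00589) and NDC80 (-0.71, interval -1.10 to -0.31, adjusted p = 0.0144) went the other way. These 10 kept their call in every alternative fit that was run. For CCNB1 the difference of 0.74 (interval 0.26 to 1.22, adjusted p = 0.0289) lost its call in 7 of 12 fits without 1 library (up to 0.0608, without the first untreated HepG2-labelled one), and was 0.50 without Huh7-labelled treated library 3 (adjusted p = 0.000121). No difference was called for DLGAP5 (0.13, interval -0.05 to 0.30), BIRC5 (-0.07, interval -0.21 to 0.08), AURKB (0.17, interval -0.05 to 0.38) or MKI67 (0.34, interval -0.06 to 0.74). Without Huh7-labelled treated library 3 the difference of DLGAP5 was called (0.19, limma adjusted p = 0.0128), and those of BIRC5, AURKB and MKI67 were not. That fit also added calls above 0 for BUB3, CDC20, UBE2C and KIF4A and below 0 for NCAPH. Across the 47 genes, changes in the lines had a Pearson r of 0.218 and a Spearman rho of 0.265; genes are not independent replicates, and the lines have separate controls.

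**Figure D3:**
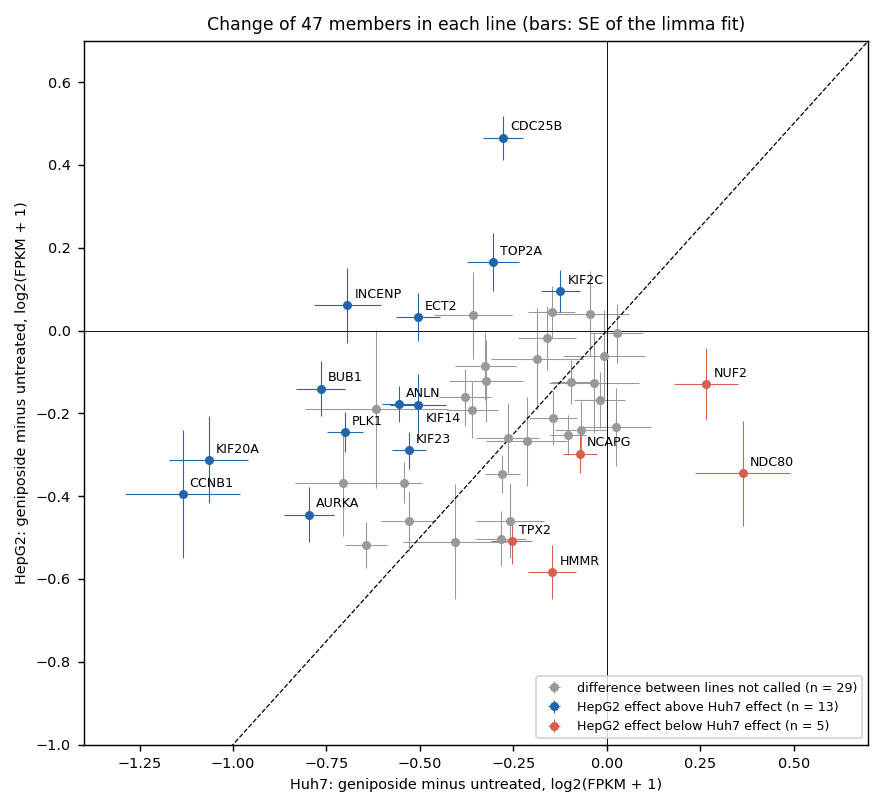
Each point is 1 of 47 members, with its geniposide effect in Huh7-labelled libraries on the horizontal axis and in HepG2-labelled libraries on the vertical axis (log2(FPKM + 1), bars are standard errors of the limma fit, the dashed line marks equal effects). Most points lie below 0 on both axes; blue points (13) have a higher value in HepG2-labelled libraries and red points (5) a lower one, and CDC25B lies alone at -0.28 and 0.47.

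The untreated lines also differed at these genes. Of 47 members, 24 were higher in untreated HepG2-labelled than in untreated Huh7-labelled libraries (36.1% of all tested genes) and 8 lower (35.8%; 71.8% in either direction), with a median difference of 0.29. That median was 0.021 after TPM scaling, which moved the median of all tested genes from -0.01 to -0.27, and -0.031 after quantile normalization; with TPM scaling 17 members were higher and 21 lower, and the calls of all genes split into 4234 and 7347 in place of 5595 and 5551. ANLN differed most, by 1.88 ± 0.04 (21.9 against 83.1 FPKM, adjusted p = 1.63e-11). CDC25B (1.08), CCNB2 (1.06), KIF2C (1.05), FOXM1 (0.97) and AURKA (0.92) were also higher in HepG2-labelled libraries. MAD2L1 (-1.03, 24.4 against 11.5 FPKM), SPC25 (-0.76) and HMMR (-0.62) were lower. PLK1 (0.34) was at 0.07 after TPM scaling and no longer called (adjusted p = 0.173). In FPKM, a level per gene length, PRC1 and NUSAP1 had the lowest untreated means in both lines (0.505 and 2.67, and 0.626 and 4.81). Both levels are uncertain, since PRC1 and NUSAP1 share 57.6% and 62.2% of their exon bases with another gene on the same strand. CCNB1 (92.7 ± 3.19) and CDC20 (91.9 ± 3.64) were highest in HepG2-labelled libraries and overlapped, followed by TOP2A (85.8 ± 1.91), ANLN (83.1 ± 2.48) and TPX2 (82.3 ± 0.867), each overlapping its neighbour. In Huh7-labelled libraries CDC20 (85.0 ± 2.03) was followed by UBE2C (78.3 ± 2.93) and CCNB1 (72.1 ± 1.41), with no overlap between them. This comparison shares its untreated libraries with the treatment effects above.

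The third treated Huh7-labelled library did not shift all members 1 way. Against the first and second treated libraries it was above both for 28 members, below both for 14 and between for 5. Its distance from their mean ran from -0.89 (CENPF) to 0.49 (CDK1) in log2, and exceeded 0.3 for 16 members. In the third treated HepG2-labelled library that distance exceeded 0.3 for 2 members, and 21 were above both others, 16 below both and 10 between. Lower in the third treated Huh7-labelled library were CENPF, CCNB1, MKI67, KIF20A and TOP2A, and higher were CDK1, SPC25, CDCA8, MAD2L1, NDC80, UBE2C and CCNA2. For 11 members the first and second treated Huh7-labelled libraries lay below every untreated one while the third reached the untreated values: NCAPG, SMC2, CCNB2, BUB3, FOXM1, KIF4A, CCNA2, NUSAP1, MAD2L1, CDCA8 and CDK1. In HepG2-labelled libraries the same held for 2 members. Shares of all tested genes were not counted for these patterns, so whether they are particular to the members is not known. Members below the untreated mean numbered 44, 43 and 35 of 47 in the treated Huh7-labelled libraries 1, 2 and 3. Of the 28 members called lower in that line with all libraries, CENPE alone lost its call without the third treated one (adjusted p = 0.0689). Called lower there only without it were CDK1, CCNB2, FOXM1, BUB3, MAD2L1, KIF4A, KIF11, NUSAP1, NCAPG and SMC2.

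**Figure D4:**
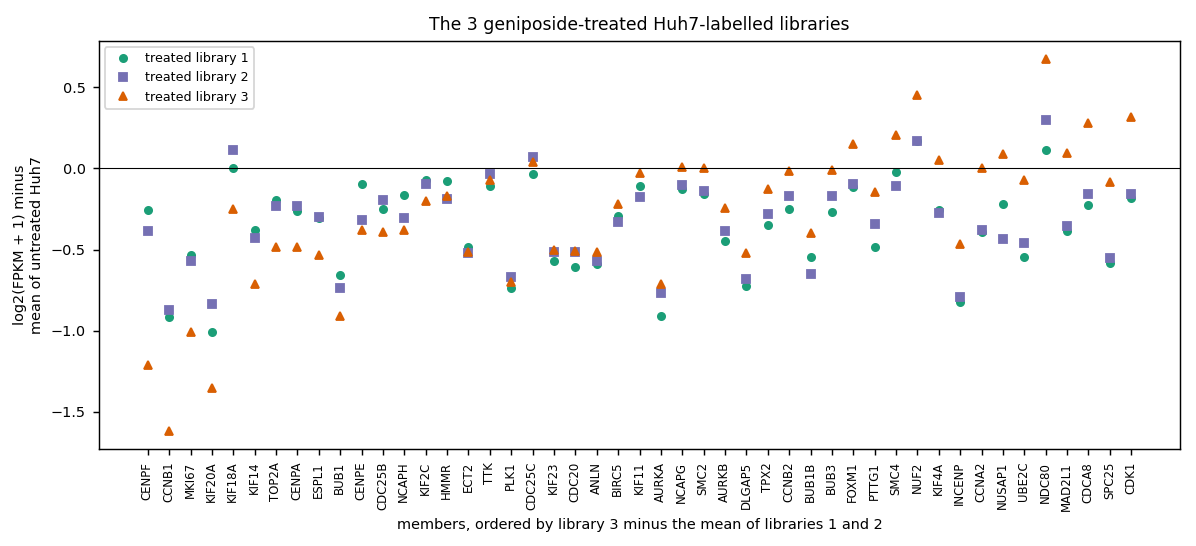
For each of 47 members (horizontal axis, ordered by how far library 3 lies from the mean of libraries 1 and 2) the log2(FPKM + 1) of each treated Huh7-labelled library is shown relative to the mean of the untreated ones. Libraries 1 and 2 lie close together below 0 for most members, while library 3 runs from well below them (CENPF, CCNB1) to above 0 (CDK1, which is 0.49 above their mean).

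Other genes of the same machinery were counted in lists chosen by function, also with earlier results of these data known. Of 141 tested genes outside the 48, 47 fell (33.3%, against 18.1% of all tested genes) and 17 rose (12.1%, against 16.4%) in Huh7-labelled cells, with a median of -0.07. In HepG2-labelled ones 44 fell (31.2%, against 21.5%) and 17 rose (12.1%, against 21%), with a median of -0.09. The shares of all tested genes just given also apply to the lists that follow. Condensin and cohesin genes fell in 8 of 15 cases (53.3%) and rose in 0 in Huh7-labelled cells. In HepG2-labelled ones 6 fell (40%) and 1 rose (6.67%). Genes of the anaphase-promoting complex and its regulators fell in 9 of 20 cases (45%) and rose in 1 (5%) in Huh7-labelled cells. In HepG2-labelled ones 7 of 20 fell (35%) and 2 rose (10%). TRIP13, the ATPase that takes apart checkpoint complexes, fell from 22.7 ± 0.362 FPKM to 13.1 ± 0.446 FPKM (adjusted p = 6.64e-06) and from 36.8 ± 0.856 FPKM to 25.5 ± 1.74 FPKM (adjusted p = 2.74e-05). ANAPC1, the largest subunit of the complex, fell from 9.63 FPKM to 6.17 FPKM and from 9.23 FPKM to 5.39 FPKM (adjusted p = 5.1e-05 and 6.96e-06). Other kinesin and spindle genes fell in 12 of 29 cases (41.4%) and rose in 3 (10.3%) in Huh7-labelled cells. In HepG2-labelled ones 11 fell (37.9%) and 5 rose (17.2%). ASPM, a spindle pole protein, fell from 17.1 FPKM to 10.8 FPKM (adjusted p = 3.78e-05) and from 23.9 FPKM to 20.8 FPKM (adjusted p = 0.0211). Other cytokinesis genes fell in 3 of 9 cases (33.3%) and rose in 1 (11.1%) in Huh7-labelled cells. In HepG2-labelled ones 1 of 9 fell (11.1%) and 0 rose, both below the shares of all tested genes (21.5% and 21%).

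Of 33 kinetochore genes outside the 48, 8 were called lower (24.2%, against 18.1% of all tested genes) and 5 higher (15.2%, against 16.4%) in Huh7-labelled libraries. In HepG2-labelled ones 10 were lower (30.3%, against 21.5%) and 2 higher (6.06%, against 21%). SKA1, which couples kinetochores to microtubules, rose from 7.80 FPKM to 13.2 FPKM in Huh7-labelled cells (adjusted p = 0.000129) and was at 4.95 and 4.58 FPKM in HepG2-labelled ones (adjusted p = 0.377). CENPH, an inner kinetochore protein, rose from 20.7 FPKM to 30.1 FPKM in Huh7-labelled cells (adjusted p = 0.000456). Centriole and centrosome genes had 1 of 14 lower (7.14%, against 18.1%) and 2 higher (14.3%, against 16.4%) in Huh7-labelled libraries. In HepG2-labelled ones 3 were lower (21.4%, against 21.5%) and 4 higher (28.6%, against 21%). NEK9, a kinase activated by PLK1 in mitosis, rose in both lines, from 16.8 FPKM to 26.3 FPKM (adjusted p = 9.09e-05) and from 14.6 FPKM to 21.5 FPKM (adjusted p = 0.000118). Among 21 further regulators of CDK1 and of late cell cycle genes, 6 fell (28.6%, against 18.1%) and 5 rose (23.8%, against 16.4%) in Huh7-labelled libraries. In HepG2-labelled ones 6 fell (28.6%, against 21.5%) and 3 rose (14.3%, against 21%). WEE1, the kinase that holds CDK1 inactive, rose from 9.15 FPKM to 14.1 FPKM in HepG2-labelled cells (adjusted p = 1.53e-05). MYBL2, which encodes B-MYB, fell from 102 FPKM to 62.2 FPKM there (adjusted p = 0.000306) and was at 136 and 138 FPKM in Huh7-labelled ones (adjusted p = 0.985). CDC25A, the relative of CDC25B that also acts at S phase entry, fell in HepG2-labelled libraries from 10.8 FPKM to 5.29 FPKM (adjusted p = 0.00228), where CDC25B rose.

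Genes of DNA replication and the G1/S step were counted for comparison. In Huh7-labelled libraries 10 of 40 fell (25%, against 18.1%) and 6 rose (15%, against 16.4%), with a median of -0.09. In HepG2-labelled ones 30 of 40 fell (75%, against 21.5%) and 2 rose (5%, against 21%), with a median of -0.43. The difference of effects was called below 0 for 17 of the 40 (42.5%, against 13.7% of all tested genes) and above 0 for 0 (against 14.1%). For the mitotic genes it was above 0 for 13 of 47 (27.7%) and below for 5 (10.6%). CDC45, a helicase factor, rose from 39.1 FPKM to 46.1 FPKM in Huh7-labelled cells (adjusted p = 0.0124) and fell from 22.2 FPKM to 11.4 FPKM in HepG2-labelled ones (adjusted p = 1.6e-06). RRM2, which makes deoxynucleotides, fell in both, from 26.4 FPKM to 18.1 FPKM (adjusted p = 0.000292) and from 23.7 FPKM to 13.6 FPKM (adjusted p = 1.42e-05).

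**Figure D5:**
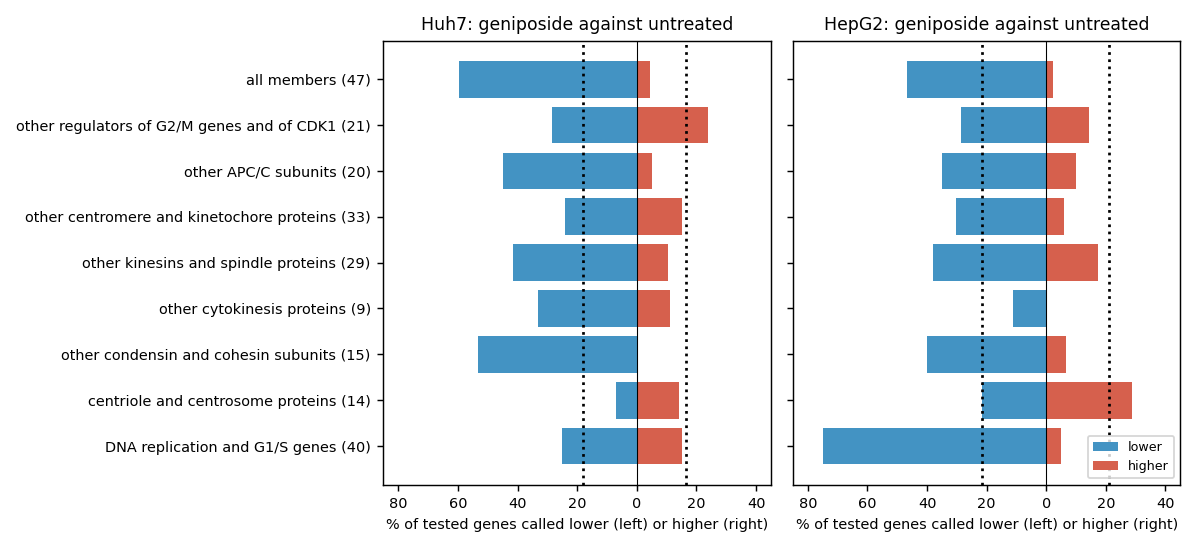
Bars give the percentage of tested genes in each list called lower (left of 0, blue) or higher (right, red) with geniposide, for Huh7-labelled (left panel) and HepG2-labelled libraries (right panel); dotted lines are the shares of all tested genes (18.1% and 16.4%, 21.5% and 21%). The members stand at 59.6% and 46.8% lower, and the replication genes at 25% and 75%.

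Some members share exons with other genes, which a count without strand cannot separate. Exon bases were shared with another annotated gene for 19 of 48 members and by at least 20% for 4, counting all other genes together: NUSAP1 (62.2%), PRC1 (58.4%), NCAPG (33.1%) and SMC4 (25.6%). On the other strand, LCORL alone shared 33.1% of NCAPG, and TRIM59 alone 18.5% of SMC4. The partner of NUSAP1, AC087721.2, lies on the same strand and was listed at 0 in all 12 libraries, and NUSAP1 was at 1.71 to 5.34 FPKM. How fragments on shared bases were counted is not known, so the level of NUSAP1 is uncertain too.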

How the data were processed

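Per the labels' protocols, poly(A) RNA of each library was turned into cDNA without marking the strand. CASAVA, fastp and hg38 are named in the submitters' processing notes, while no aligner, counter or version is named there. The authors deposited FPKM per gene for 12 libraries in 4 groups of 3, with gene lengths and positions, per the file headers; 0 further columns of sample values were present. FPKM multiplied by gene length and by a total fitted per library gave whole fragments for 100% of values (tolerance 0.05). Their sum was taken as depth (15056655 to 17211659 fragments), the fitted total was 0.895 to 1.17 times that sum, and 3 fragments correspond to 0.161 to 0.212 FPKM in a gene of 1 kb. Pairs within groups differed by more than counting error (chi-square over its degrees of freedom at least 2.2), so every library was 1 replicate.

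Genes with at least 1 FPKM in 3 libraries (15518) were tested on log2(FPKM + 1) with limma 3.58.1 in R 4.3.3 (4 group means, trended variance, 8 residual degrees of freedom), adjusted by Benjamini-Hochberg over all of them; the threshold was 0.05. The script was tested on simulated data. Alternatives covered the pseudocount (0.1), no filter and 5 FPKM, TPM, median-of-ratios and quantile scaling, each line alone, limma's voom with TMM factors on the fragments, a replicate block, no trend, and leaving out each library. Promoter windows came from RefSeq (GRCh38.p14).

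The members and lists were chosen with earlier results of these data known. Values in every library are given for CDK1, CCNB1, FOXM1, PLK1, AURKA, AURKB, TOP2A and MKI67, for the 6 members with the smallest p in each direction and line, for the 5 with the smallest p for the difference, and for members called against most; genes named beyond these, and the 2 genes that overlap NUSAP1 and PRC1, were chosen after their values were seen. The result of 1 further marker list is not reported here.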

Additional observations from a re-analysis of the deposited data

Results flagged for a closer look

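The difference of geniposide's effect between the lines (HepG2-labelled minus Huh7-labelled, log2 scale) passed limma's test for 18 members. It was above 0 for the entry genes CCNB1 (0.74), CDC25B (0.74), PLK1 (0.46) and AURKA (0.35), for INCENP (0.76) and BUB1 (0.63), for the kinesins KIF2C (0.22), KIF14 (0.32), KIF20A (0.75) and KIF23 (0.24), and for ANLN (0.38), ECT2 (0.54) and TOP2A (0.47). It was below 0 for NDC80 (-0.71), NUF2 (-0.40), TPX2 (-0.26), HMMR (-0.44) and NCAPG (-0.23). CDC25B was lower in every treated Huh7-labelled library and higher in every treated HepG2-labelled one, NDC80 was higher in the first line and lower in the second, and TOP2A was lower in the first and higher in the second. Without 1 library the calls of AURKA and KIF23 reached adjusted p = 0.0502 (without the third untreated HepG2-labelled library) and 0.0504 (without the third untreated Huh7-labelled one). The calls of CCNB1, NUF2, KIF2C, KIF14, TPX2 and NCAPG were lost in 5 to 9 of 12 such fits, with adjusted p up to 0.109 (KIF2C, without the first untreated Huh7-labelled library).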

How the results depend on the processing

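Of the members called with all libraries, 18 of 30 in Huh7-labelled libraries, 13 of 23 in HepG2-labelled ones, 10 of 18 for the difference and 20 of 32 between the untreated lines kept direction and call in every alternative run. In Huh7-labelled libraries the count called higher (2) was 0 with no filter or that line alone and 1 with no trend, and 0 to 2 without 1 library; all tested genes called went from 5357 to 3266 with that line alone. The Huh7-labelled median was -0.21 with TPM and -0.19 with quantile scaling. CDK1 there was 0.069 (TPM), 0.10 (quantile) and -0.17 to 0.080 without 1 library; FOXM1 was 0.058, 0.076 and -0.10 to 0.027. In HepG2-labelled libraries 3 members were called higher with TPM scaling and with that line alone, 2 with quantile scaling and with voom, and 1 to 2 without 1 library; 14 were called lower with TPM scaling (15 to 30 without 1 library). The HepG2-labelled median was -0.13 (TPM) and -0.10 (quantile), and CDK1 was 0.0083 and 0.058. Members whose difference was called below 0 (5) numbered 3 with no filter, 2 with voom and 2 to 6 without 1 library, and CDK1's difference ran from -0.14 to 0.11. Between untreated lines, members called lower (8) numbered 21 with TPM and 19 with quantile scaling, the median was 0.021 (TPM), -0.031 (quantile), 0.27 (voom) and 0.26 to 0.31 without 1 library, and all genes called went from 11146 to 7220 with the 5 FPKM filter, which tests fewer genes. With quantile scaling CDK1 (-0.052), CCNB1 (-0.061) and KIF11 (-0.031) reversed there, and BUB1B (-0.025) with TPM. The cause of these changes was not tested. With the replicate number as a block, Huh7-labelled libraries had 2 members higher and 25 lower, HepG2-labelled ones 1 and 19, the difference was above 0 for 9 and below for 3, and between untreated lines 22 were higher and 5 lower with a median of 0.26. Same-numbered libraries did not deviate together (correlations -0.0615 to 0.0201), and not every library correlated best with its own number, so the numbers give no pairing. Group size and unknown culture replication limit all p-values, and members at a few FPKM rest on as few as 86 fragments in a library.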
